A study of Homo sapiens with 8 samples.

Results

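The replication-dependent histone genes are the H1, H2A, H2B, H3 and H4 genes that supply chromatin proteins while DNA is being copied. They were picked by symbol (H1-1 to H1-6 and the numbered H2AC, H2BC, H3C and H4C genes, or the older HIST names for the same genes), and pseudogenes were dropped. The rule holds no measured value, but this set was chosen with earlier results of these data known. Of 58884 genes in the table, 70 were members: 6 of class H1, 17 of H2A, 19 of H2B, 13 of H3 and 15 of H4. Enough counts for a test were found for 54 of them. The other 16 held at most 39 counts over all 8 libraries, and 9 of them held none.

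Histone supply is tied to S phase. NPAT, driven by cyclin E and CDK2, switches on the clustered histone genes together, and their messages end in a conserved stem-loop in place of a poly(A) tail. The stem-loop binding protein SLBP and the U7 snRNP direct the 3′ end cut, and the messages are degraded when replication stops. Many replacement variants, H3-3B among them, are made from separate, polyadenylated messages outside S phase too.

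The cells were U87, an established human glioblastoma line, and the 8 libraries fell into 4 groups of 2. DMSO cells received the solvent. AsiDNA cells were treated long-term with AsiDNA, a short DNA duplex built to look like a broken end and to engage repair enzymes, at a dose and for a time that the labels do not give. Belinostat cells received 1 µM belinostat, an inhibitor of histone deacetylases, for 24 h, and combination cells were long-term AsiDNA cells that received the same belinostat treatment. All groups were of the same line, so they model the cells of a single tumour. The labels' protocols call the cells MTU87 and LTAU87 without explaining the names, and they do not say whether replicates came from separate cultures, so a p-value here reflects the scatter among the libraries alone, and that scatter may be technical. Total RNA was sequenced after removal of ribosomal RNA, a method that keeps messages without a poly(A) tail.

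Libraries held 6057394 to 9699637 counts, so that 3 counts equalled 0.309 to 0.495 CPM (counts scaled to a common library total, here with TMM factors). The 10 most abundant genes took 5.73% to 7.53% of counts in the DMSO and AsiDNA libraries, 10% to 11% in the combination and 18.9% to 19.5% with belinostat. The DMSO libraries stood apart from each other: the chi-square of their counts over genes was 27.3 per degree of freedom, against 1.91 to 4.37 for the other pairs. DMSO replicate 1 exceeded DMSO replicate 2 for 53 of the 54 tested histone genes, with a median ratio of 1.82, where 53.5% of all tested genes were higher in replicate 1. Of the markers that a glioma line may carry, VIM, CD44 and EGFR were abundant in all libraries, PDGFRA stood at 3.69 to 6.90 CPM and OLIG2 at 0.506 to 1.57 CPM, while GFAP, SOX2 and S100B, glial and neural markers, had too few counts to be tested, as had PTPRC, EPCAM, CDH1 and RBFOX3, markers of leukocytes, epithelium and neurons. The intermediate filament genes moved with belinostat: NES stood at 4.94 and 5.73 CPM in DMSO and at 38.4 and 26.2 CPM with belinostat (2.60 ± 0.21 on the log2 scale, edgeR adjusted p = 4.57e-07), and VIM at 5508 and 3478 CPM in DMSO and at 1473 and 1367 CPM with belinostat (-1.66 ± 0.19, adjusted p = 7.72e-06). CD44, EGFR, PDGFRA and OLIG2 were not called in that comparison, and the part of any of these genes in the histone results was not tested.

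On GRCh38, in GENCODE release 29, the members lay in 5 clusters and at 2 single sites. On chromosome 6, 34 members lay between 25726132 and 26285638, 5 between 27125897 and 27147515, and 16 between 27807444 and 27893843. On chromosome 1, 11 members lay between 149782689 and 149887916, and a pair, H2AC25 and H2BC26, between 228456979 and 228460470. H4C16 stood alone on chromosome 12 (14767999 to 14771131) and H2BC12L on chromosome 21.

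Promoters are shown for 5 members inside the large clusters, among them the most negative one (H2AC4) and 3 that fell by less than the median member with belinostat (H2BC21, H1-2 and H1-4), and for 3 outside them (H2AC25, H2BC26 and H4C16). They were chosen with the values known. RefSeq promoters (GRCh38.p14) were found for 64 of the 70 members. The letters printed are the 100 bases before the start of each gene on its own strand, with any match on either strand to the octamer ATTTGCAT, bound by POU2F1 (Oct-1), to CCAAT or to TATAAA in capitals. The windows are chr6:26033619-26033718 (minus strand) for H2AC4, chr6:27132796-27132895 (minus) for H2BC11, chr1:149886683-149886782 (minus) for H2BC21, chr6:26056471-26056570 (minus) for H1-2, chr6:26156229-26156328 (plus) for H1-4, chr1:228457874-228457973 (minus) for H2AC25, chr1:228458003-228458102 (plus) for H2BC26 and chr12:14771132-14771231 (minus) for H4C16.
H2AC4: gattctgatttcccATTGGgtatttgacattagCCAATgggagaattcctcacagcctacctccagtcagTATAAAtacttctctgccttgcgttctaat
H2BC11: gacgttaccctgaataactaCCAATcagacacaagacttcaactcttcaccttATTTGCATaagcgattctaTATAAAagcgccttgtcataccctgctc
H2BC21: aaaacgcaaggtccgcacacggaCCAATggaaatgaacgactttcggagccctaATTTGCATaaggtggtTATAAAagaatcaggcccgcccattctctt
H1-2: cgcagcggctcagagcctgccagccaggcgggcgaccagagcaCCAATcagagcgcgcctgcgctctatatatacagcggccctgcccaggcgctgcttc
H1-4: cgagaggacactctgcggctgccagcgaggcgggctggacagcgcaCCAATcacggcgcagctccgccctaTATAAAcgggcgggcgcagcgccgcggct
H2AC25: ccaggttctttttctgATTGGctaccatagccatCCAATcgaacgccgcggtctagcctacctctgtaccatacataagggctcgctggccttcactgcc
H2BC26: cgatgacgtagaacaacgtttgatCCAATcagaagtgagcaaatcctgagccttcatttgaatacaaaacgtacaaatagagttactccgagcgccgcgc
H4C16: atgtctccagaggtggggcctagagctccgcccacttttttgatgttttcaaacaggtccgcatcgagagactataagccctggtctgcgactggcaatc

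The longer window from 250 bases before to 50 after the start was searched on both strands in all members. The octamer was present in 11 of 16 H2A promoters (68.8%), 14 of 18 H2B promoters (77.8%), 1 of 11 H3 promoters (9.09%) and in none of the 6 H1 and 13 H4 promoters, against 1.77% of 35116 promoters. CCAAT was found in every H1, H2A, H2B and H3 promoter searched and in 3 of 13 H4 promoters (23.1%), against 34.6% of all promoters. TATAAA was found in 65.6% of members and 11.5% of all promoters. The H2AC4 window printed above holds no octamer, which in that gene lies at -118 from the start. These are matches of letters, not measured binding.

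The mature message of these genes ends at the stem-loop, which is shown because it sets the class apart from other messages. The histone stem-loop, 16 letters in which a stem of 6 base pairs closes a loop of 4 bases, was searched on the sense strand and found in the transcripts of 23 members and of 29 genes among 58676 in the GENCODE transcript file (0.0494%). No bases after the stop codon are included in the gene models of 34 members, in which the search could not find it there. Of the 31 members with at least 60 such bases, 22 held the motif after the coding part. Sites are printed with 5 bases on each side and the motif in capitals.
H4C2: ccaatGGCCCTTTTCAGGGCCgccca
H2AC11: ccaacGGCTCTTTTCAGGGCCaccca
H2BC21: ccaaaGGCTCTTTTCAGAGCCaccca
H2AC25: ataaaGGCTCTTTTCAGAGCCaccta
H2BC26: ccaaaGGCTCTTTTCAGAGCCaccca
H4C16: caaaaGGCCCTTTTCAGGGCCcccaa
H2AC25, H2BC26 and H4C16, whose values departed from those of the other members, thus carried it as well.

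Histone genes took 0.447% and 0.267% of all counts in DMSO replicates 1 and 2, 0.485% and 0.508% in the AsiDNA libraries, 0.0502% and 0.048% with belinostat, and 0.168% and 0.186% in the combination. The Wilson 95% intervals reached at most 0.0054 percentage points to either side and cover counting error only. Both belinostat libraries were thus the lowest, both combination libraries lay above them and below both DMSO libraries, and both AsiDNA libraries were the highest. In TMM-scaled CPM the summed level was 3380 ± 1400 (SD, n = 2) in DMSO, 4833 ± 173 in AsiDNA, 505.2 ± 19.8 with belinostat and 1890 ± 124 in the combination. The DMSO mean was 6.69 times the belinostat mean, and the AsiDNA mean 2.56 times the combination mean. In bulk RNA, fewer cells in S phase and less histone RNA per cell cannot be told apart. With 2 libraries a group an exact 2-sided permutation test cannot give a p under 0.333, so these sums carry no test.

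**Figure D1:**
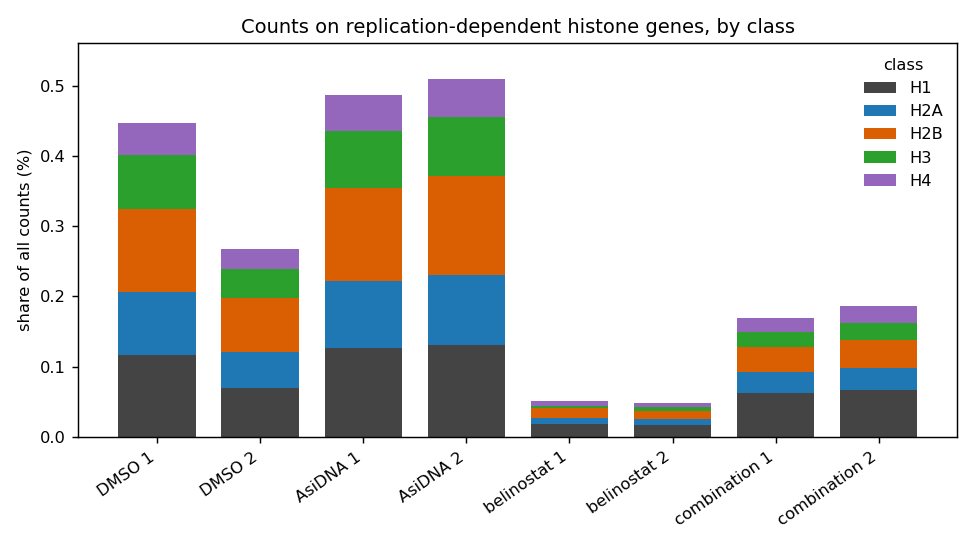
Share of all counts (%) that fell on the replication-dependent histone genes in each of the 8 libraries, stacked by histone class (H1 at the bottom, H4 at the top). The belinostat bars reach 0.0502% and 0.048%, the combination bars 0.168% and 0.186%, and the DMSO bars differ from each other (0.447% and 0.267%).

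The classes did not shrink in proportion. By the ratio of the DMSO mean to the belinostat mean in CPM, H3 genes were lower by the largest factor (12), followed by H2A (8.47), H2B (6.85), H4 (5.74) and the linker class H1 (4.79). The H1 share of histone counts was 26.3% and 26.1% in DMSO, 25.9% and 25.6% in AsiDNA, 37.4% and 35.7% with belinostat, and 37.3% and 36.0% in the combination. Every library with belinostat was above every library without it. The H3 share was 17.3% and 15.4% in DMSO, 16.6% in both AsiDNA libraries, 8.24% and 10.4% with belinostat, and 12.2% and 12.7% in the combination. Here the 4 libraries with belinostat were all below the 4 without it. The H2B share was lowest in the combination (21.4% and 21.5%) and lay between 25.7% and 28.5% in the other 6 libraries. No test between classes was made.

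Belinostat against DMSO asks what inhibition of deacetylases did in cells without AsiDNA. Of 54 tested members 52 fell and none rose (edgeR's quasi-likelihood F-test, adjusted p under 0.05), where 27.6% of all 14741 tested genes fell, 29.8% rose and 57.4% changed in either direction. The median log2 fold change was -3.09, against 0.06 over all tested genes. Both belinostat libraries lay below both DMSO libraries in the same number of members, 52 of 54, as they did for 35.8% of all tested genes. Without DMSO replicate 1 the median was -2.50, against 0.07 over all tested genes. Without DMSO replicate 2 it was -3.44, against 0.10.

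Linker histone H1 binds the DNA between nucleosomes and compacts it. All 5 tested H1 genes fell, with log2 fold changes from -3.48 to -1.88. H1-5 stood at 374.3 and 187.5 CPM in DMSO and at 23.5 and 26.8 CPM with belinostat, a change of -3.48 ± 0.26 (SE; adjusted p = 2.21e-07). H1-2, known to give polyadenylated messages too, stood at 358.0 and 204.8 CPM in DMSO and at 80.2 and 67.2 CPM with belinostat, a change of -1.93 ± 0.21 (adjusted p = 4.72e-06). The groups did not overlap for either gene, and the low point was deeper for H1-5. H1-4 (-1.90 ± 0.21) and H1-3 (-1.88 ± 0.22) fell as H1-2 did.

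H2A pairs with H2B to form the outer dimers of the nucleosome, and 13 of 14 tested H2A genes fell. H2AC4 went from 35.5 and 13.4 CPM in DMSO to 0.819 and 0.675 CPM with belinostat, the most negative fold change of any member (-4.98 ± 0.53). Those belinostat values rest on 7 and 4 counts. H2AC11, among the most counted H2A genes, went from 133.0 and 77.9 CPM to 8.30 and 7.93 CPM (-3.69 ± 0.24), and further falls were those of H2AC20 (-3.09 ± 0.30), H2AC8 (-3.39 ± 0.28) and H2AC6 (-2.06 ± 0.30). All 17 tested H2B genes fell, with a median of -3.02. H2BC11 went from 75.7 and 36.8 CPM to 2.46 and 2.19 CPM (-4.57 ± 0.35). H2BC21 went from 136.5 and 84.5 CPM to 26.8 and 17.2 CPM (-2.31 ± 0.23). Both promoters, printed above, hold the octamer, CCAAT and TATAAA. Among the other H2B genes with the most counts, the falls were those of H2BC18 (-2.08 ± 0.22), H2BC5 (-1.999 ± 0.20) and H2BC9 (-2.64 ± 0.24).

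H3 and H4 form the central tetramer. All 9 tested H3 genes fell, with a median of -3.56. H3C2 went from 195.3 and 96.6 CPM to 10.2 and 11.98 CPM (-3.73 ± 0.28). The others with the most counts were H3C7 (-3.96 ± 0.28), H3C8 (-3.67 ± 0.34) and H3C3 (-3.46 ± 0.27). H3C12 (-4.70 ± 0.48) and H3C13 (-3.56 ± 0.41) fell as well. Of 9 tested H4 genes 8 fell, with a median of -2.66. H4C5 went from 100.5 and 60.6 CPM to 14.5 and 13.2 CPM (-2.53 ± 0.21). H4C2 (-3.26 ± 0.32), H4C3 (-2.36 ± 0.19) and H4C4 (-2.96 ± 0.31) also fell.

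**Figure D2:**
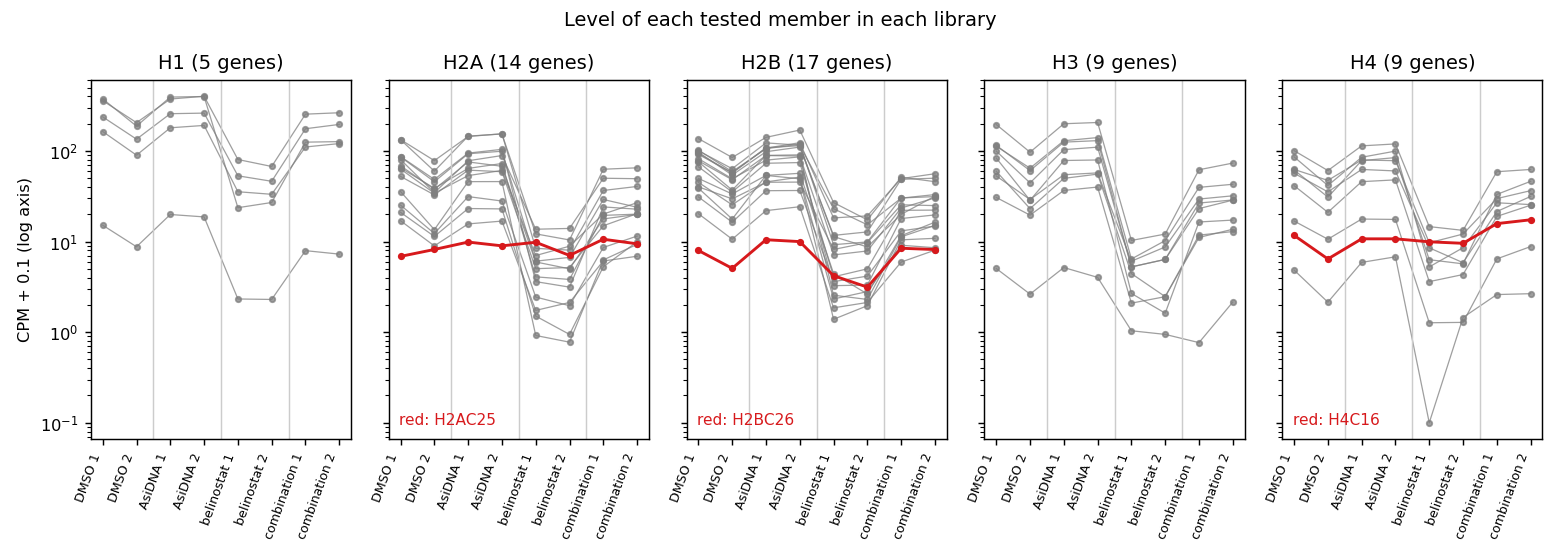
Level of each of the 54 tested members in each library, as CPM + 0.1 on a log axis, with 1 panel per class and 1 line per gene. Most grey lines drop in the belinostat libraries and lie between in the combination, while the red lines of H2AC25 and H4C16 stay between 6.32 and 17.3 CPM; the lowest point is H4C11, which had no count in belinostat replicate 1.

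The members outside the large clusters departed from the rest. H2AC25 and H2BC26 are divergently placed genes with 233 bases between their annotated starts. H2AC25 stood at 6.75 and 8.07 CPM in DMSO, 9.76 and 8.86 in AsiDNA, 9.71 and 6.92 with belinostat and 10.5 and 9.33 in the combination. The DMSO and belinostat libraries overlapped, and the difference was 0.18 ± 0.24 (adjusted p = 0.531). H2BC26 stood at 7.86 and 4.96 CPM in DMSO, 10.4 and 9.87 in AsiDNA, 4.09 and 3.04 with belinostat and 8.33 and 8.05 in the combination. It fell by 0.82 ± 0.30 with belinostat (adjusted p = 0.0306), a call lost without DMSO replicate 1 (-0.45, adjusted p = 0.235), without belinostat replicate 2 (-0.73, adjusted p = 0.117), with DESeq2 (adjusted p = 0.0661) and in a fit of only these groups (adjusted p = 0.0697). H4C16 on chromosome 12 stood at 11.6 and 6.32 CPM in DMSO, 10.6 in both AsiDNA libraries, 9.82 and 9.45 with belinostat and 15.7 and 17.3 in the combination. It overlapped between DMSO and belinostat (0.11 ± 0.26, adjusted p = 0.732). Without DMSO replicate 1 it was higher with belinostat (0.60, adjusted p = 0.0356). None of these 3 promoters held the octamer in the longer window, while the 23 tested members that held it ranged from -4.98 to -2.06 on the log2 scale. The 26 tested members with a promoter but no octamer ranged from -3.96 to 0.18. The median was -3.11 with the octamer and -2.74 without it, and -3.56 for the 7 H3 genes without it. A link between the octamer and the change with belinostat was not tested.

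Within the large clusters, all 51 tested members fell with belinostat. The median was -3.02 over 28 tested members of the first chromosome 6 cluster, -4.02 over 4 of the second, -3.05 over 14 of the third and -3.09 over 5 of the first chromosome 1 cluster. Genes between and beside the chromosome 6 clusters that are not histone genes served for comparison. Of 11 tested neighbours 2 fell (HMGN4 -0.81 ± 0.15 and BTN3A2 -0.43 ± 0.16) and 2 rose (BTN2A2 1.56 ± 0.23 and TRIM38 0.99 ± 0.15), with a median of -0.11. Among all tested genes 27.6% fell and 29.8% rose. Fewer neighbours fell without DMSO replicate 1, AsiDNA replicate 1, AsiDNA replicate 2 or belinostat replicate 1. The share of all tested genes that fell was also smaller in each of these fits.

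**Figure D3:**
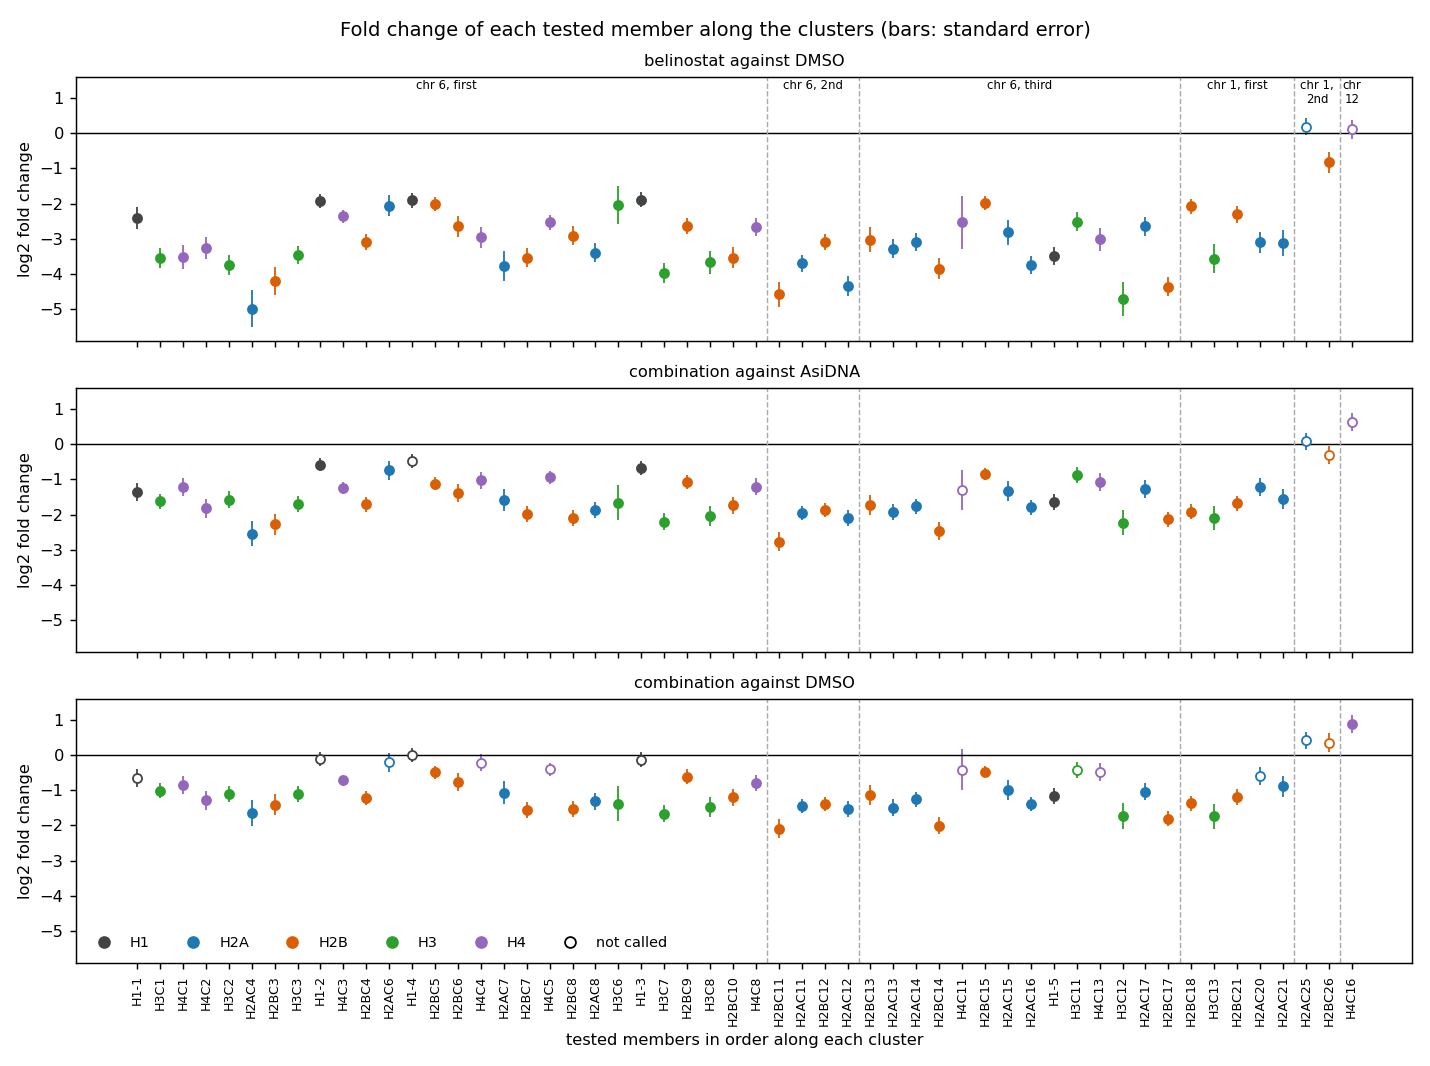
Log2 fold change with its standard error for the 54 tested members, in order along each cluster, for belinostat against DMSO (top), the combination against AsiDNA (middle) and the combination against DMSO (bottom). Filled points passed an adjusted p of 0.05, colours give the class, and the 3 points at the right (H2AC25, H2BC26 and H4C16) lie above the points of the large clusters in the top panel.

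The combination against AsiDNA asks the same of belinostat in cells kept on AsiDNA. Here 49 of 54 tested members fell and none rose, where 21.2% of all tested genes fell. The median was -1.64, against 0.02 over all tested genes. Both combination libraries lay below both AsiDNA libraries for 52 members and above for 1, H4C16, where 37.7% of all tested genes lay below and 39.3% above. The 5 members without a call were H1-4, H2AC25, H2BC26, H4C16 and H4C11, the last of which was named after its values were seen.

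Among the linker genes, H1-5 went from 392.1 and 397.8 CPM in AsiDNA to 124.7 and 126.4 CPM in the combination (-1.65 ± 0.23, adjusted p = 7.06e-05). H1-2 went from 373.2 and 400.4 CPM to 254.1 and 263.3 CPM (-0.58 ± 0.20, adjusted p = 0.0285), a call lost when either AsiDNA library was left out (adjusted p = 0.0891 and 0.15) or either combination library (adjusted p = 0.123 and 0.0847). H1-4 changed from 257.1 and 260.9 CPM to 175.4 and 195.7 CPM (-0.48 ± 0.20, adjusted p = 0.0638), and it was called lower under 7 alternatives, among them DESeq2 (adjusted p = 0.0466) and leaving out either DMSO library. The calls of H1-3 (-0.68 ± 0.20) and H2AC6 (-0.75 ± 0.27) were lost without AsiDNA replicate 1, AsiDNA replicate 2 or combination replicate 1. In that order the values were -0.73, -0.64 and -0.63 for H1-3 and -0.85, -0.65 and -0.76 for H2AC6. The H2AC6 call was also lost with DESeq2 (adjusted p = 0.159), without either belinostat library (-0.76 for each) and without combination replicate 2 (-0.77). H2BC11 had the most negative value, from 89.0 and 90.3 CPM to 11.2 and 14.95 CPM (-2.77 ± 0.28). Falls were also called for H2AC4 (-2.55 ± 0.36), H3C2 (-1.58 ± 0.24) and H4C5 (-0.94 ± 0.19). H4C16 had the highest value (0.64 ± 0.25, adjusted p = 0.056). It was called higher in a fit of only these groups (0.645, edgeR adjusted p = 0.00145) and without DMSO replicate 1 (0.636) or DMSO replicate 2 (0.633).

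The combination against belinostat shares its belinostat libraries with the first comparison. In it 52 of 54 tested members were higher and none lower, where 22% of all tested genes were higher. The median was 1.97, against -0.01 over all tested genes, and both combination libraries lay above both belinostat libraries in the same number of members, as they did for 38.4% of all tested genes. H2AC4 had the largest value, from 0.819 and 0.675 CPM to 6.16 and 9.20 CPM (3.33 ± 0.62). H1-5 was higher by 2.32 ± 0.25, H3C2 by 2.62 ± 0.29, H4C4 by 2.74 ± 0.31 and H2AC20 by 2.50 ± 0.30. H2BC18 (0.70 ± 0.23, adjusted p = 0.0246) and H2BC21 (1.11 ± 0.24, adjusted p = 0.00275), both of the first chromosome 1 cluster, were among the called members with the smallest differences, and the H2BC18 call was lost without belinostat replicate 2 (0.51, adjusted p = 0.157) and without combination replicate 2 (adjusted p = 0.106). H2AC25 (0.23 ± 0.24, adjusted p = 0.464) and H3C6 passed no test.

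Combination against DMSO sets the cells with both agents beside the solvent. Of 54 tested members 40 were lower and 1, H4C16, higher (0.88 ± 0.25, adjusted p = 0.0101), where 23.7% of all tested genes were lower and 24.3% higher. The median was -1.11. The H4C16 call was lost without combination replicate 2 (0.77, adjusted p = 0.0881). The count of lower members moved with single libraries: it was 29 without combination replicate 1 (where 16.5% of all tested genes were lower), 31 with 7 higher without DMSO replicate 1 (27.2% and 29.1%), and 51 with 1 higher without DMSO replicate 2 (24.4% and 24.8%). By class, 16 of 17 H2B genes, 11 of 14 H2A, 8 of 9 H3, 4 of 9 H4 and 1 of 5 H1 genes were lower. H2BC11 (-2.09 ± 0.28) had the most negative value. H1-2 (-0.12 ± 0.20), H1-3 (-0.13 ± 0.20) and H1-4 (-0.00 ± 0.20) were not called, their combination libraries lying between the DMSO libraries. Without DMSO replicate 1 all 3 were called higher (0.35, 0.38 and 0.48), and without DMSO replicate 2 all 3 were called lower (-0.47, -0.51 and -0.36).

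AsiDNA against DMSO shares its control libraries with the belinostat comparison. No member was called, where 0.0204% of all tested genes were called in either direction, by edgeR's quasi-likelihood F-test, and DESeq2 also called none. At an unadjusted p under 0.05 35 members were higher, where 3.93% of all tested genes were. All 54 fitted values were above 0, with a median of 0.52 and a range from 0.23 (H2AC17) to 0.90 (H2AC4). Both AsiDNA libraries lay above DMSO replicate 2 for all 54 tested members, as for 46.2% of all tested genes, and above both DMSO libraries for 43, as for 21% of all tested genes. Without DMSO replicate 1, 52 members were called higher with a median of 1.00, where 18.3% of all tested genes were called higher, and without DMSO replicate 2 none was called and the median was 0.16.

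The interaction asks whether the belinostat change differed between cells with and without AsiDNA. No member passed in edgeR's quasi-likelihood F-test, where 0.00678% of all tested genes did, and the lowest adjusted p was 0.0515. The fitted difference was above 0 for 53 of 54 members, with a median of 1.48, and 47 had an unadjusted p under 0.05, where 12.7% of all tested genes were higher at that limit. H3C12 had the largest value (2.47 ± 0.63, adjusted p = 0.0822) and H2AC25 the smallest (-0.10 ± 0.34, adjusted p = 0.893). DESeq2 called 34 members higher, with no adjusted p for 10, where it called 3.23% of all tested genes higher. Leaving out DMSO replicate 1 gave 38 higher calls, beside 4.15% of all tested genes, and leaving out DMSO replicate 2 gave 51, beside 20.3%. Group means ran in the order belinostat, combination, DMSO, AsiDNA from lowest to highest for 51 of 54 members. How many of all tested genes share this order was not determined, so the count has no baseline. Its top step is uncertain, as the DMSO mean joins unlike libraries. Of these, replicate 1 was the higher for 53 of 54 members, by a median ratio of 1.82. No member passed the test between the upper neighbours in this order, DMSO and AsiDNA.

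In all, 6 members are known to give polyadenylated messages in cells that leave the cycle or in some lines: H1-2, H2AC6, H2BC4, H2BC5, H2BC12 and H2BC21. All fell with belinostat, with a median of -2.18, against -3.10 over the 48 other tested members. Their summed level in DMSO was 4.6 times that with belinostat, and that of the other members 7.53 times. Within this set H2BC12 (-3.09 ± 0.24) and H2BC4 (-3.09 ± 0.24) were the most negative and H1-2 (-1.93 ± 0.21) the least. The difference between these sets was not tested, and total RNA libraries do not separate tailed from tailless messages.

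Other genes of the pathway were listed by function. Of 33 tested genes of S phase DNA replication, 30 fell with belinostat and none rose, with a median of -1.46. The shares over all tested genes were 27.6% falling and 29.8% rising. UHRF1, which keeps DNA methylation at the fork, fell by 2.30 ± 0.13, RRM2, which makes deoxynucleotides, by 2.49 ± 0.16, TYMS, which makes thymidylate, by 2.701 ± 0.19, and the helicase subunit MCM5 by 1.61 ± 0.12. In the combination against AsiDNA 27 fell, with a median of -0.90, where 21.2% of all tested genes fell. In the combination against belinostat 22 were higher and 1 lower, with a median of 0.53, where 22% of all tested genes were higher and 21.4% lower. These genes thus moved in the same direction as most histone genes in those comparisons, and their part in the histone result was not tested. In AsiDNA against DMSO none of the 33 was called by edgeR (2 had an unadjusted p under 0.05), their median was 0.04 and 21 of 33 were above 0. Of the 6 markers of other cell types PECAM1 (endothelium) and MBP (oligodendrocytes) had enough counts to be tested. PECAM1 stood at 5.04 and 4.96 CPM in DMSO and at 20.6 and 18.9 CPM with belinostat, and MBP at 7.16 and 7.19 CPM in DMSO and at 2.69 and 2.03 CPM with belinostat. Their part in the result was not tested.

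Of 22 tested factors that transcribe or process histone messages, 5 fell and 4 rose with belinostat, with a median of -0.12. Over all tested genes 27.6% fell and 29.8% rose. More factors fell without DMSO replicate 2, and fewer rose without belinostat replicate 2. The shares over all tested genes moved in the same directions in these fits. NPAT stood at 33.1 and 28.1 CPM in DMSO and at 36.8 and 37.1 CPM with belinostat, a difference of 0.28 ± 0.15 that passed no test (adjusted p = 0.126). SLBP went from 85.2 and 72.8 CPM to 46.8 and 55.5 CPM (-0.63 ± 0.14, adjusted p = 0.00197). CCNE2, the cyclin E2 gene, fell by 1.90 ± 0.18 and CASP8AP2, a histone locus body protein, by 0.65 ± 0.12. HINFP, a transcription factor of H4 genes, rose by 1.20 ± 0.23, and TUT7, a uridylating enzyme of histone message decay, rose by 0.85 ± 0.11. In the combination against AsiDNA the changes of SLBP (-0.18 ± 0.14) and HINFP (-0.03 ± 0.25) passed no test.

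Of 17 tested histone chaperones 11 fell and 3 rose with belinostat, with a median of -0.58. Fewer chaperones rose without belinostat replicate 1, where a smaller share of all tested genes rose too. HJURP, the CENPA chaperone, fell by 1.49 ± 0.13. The CAF-1 subunit CHAF1B (-1.499 ± 0.17) and TONSL, a reader of new histones (-1.68 ± 0.19), fell too, while MMS22L, its partner, fell by 1.17 ± 0.12. Of 10 tested replacement variants 6 fell and 3 rose. Beside this list and the chaperones stand 27.6% of all tested genes that fell and 29.8% that rose. H2AJ rose by 2.698 ± 0.52 from levels near 1 CPM. H2AX, the variant phosphorylated at DNA breaks, fell by 2.20 ± 0.21, H2AZ1 by 1.91 ± 0.15 and CENPA, the centromere variant of H3, by 1.97 ± 0.16.

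**Figure D4:**
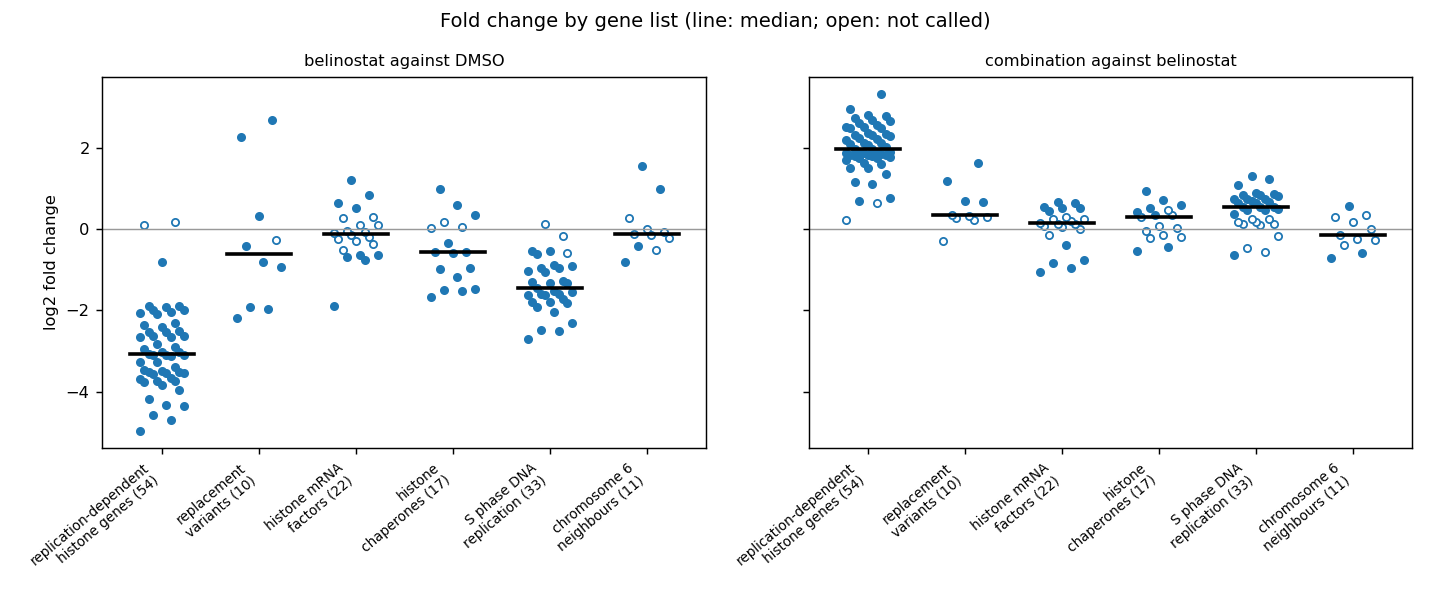
Log2 fold change of each tested gene in the replication-dependent histone genes and in 5 other lists, for belinostat against DMSO (left) and the combination against belinostat (right), with the median as a line and open points for genes not called. The histone medians are -3.09 and 1.97, and those of the S phase genes -1.46 and 0.53.

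Several members are near-identical, and how reads that map to more than 1 gene were counted is not given in the sources used here. Over the transcripts, the median share of 50-base stretches that also occur in another gene was 0.941% for the tested members and 97.2% for the untested ones. Among the tested members H2AC7 (98.0%), H2AC17 (86.3%), H2AC14 (83.7%), H4C11 (81.2%), H3C13 (80.4%), H2BC12 (74.1%) and H2AC13 (62.3%) shared the most, and their single values are uncertain. These members were named for this share after the files were read. On the same strand, H2AC7 and the untested H3C4 overlap the locus AL031777.3, and H2AC17 overlaps H3C12. The stretches they share may thus be the same genomic bases annotated in more than 1 gene, not copies elsewhere. Of the 16 untested members, 9 shared over 90% of such stretches, and for these, loss of reads in the counting and low expression cannot be told apart. The other 7 (H1-6, H2AC1, H2BC1, H3C10, H4C6, H4C7 and H4C9) shared under 1%, overlapped no other annotated gene and held at most 39 counts over all libraries.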

How the data were processed

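Total RNA of 8 U87 libraries was made into stranded libraries after ribosomal depletion, per the labels' protocols. The authors trimmed reads with cutadapt 1.16, aligned them to GRCh38 with STAR 2.7.0 and counted genes with featureCounts 1.6.3 of Subread, per the submitters' processing notes. Raw counts per gene were deposited by the authors. The annotation release, strand setting and treatment of multi-mapping reads are not stated in the sources at hand, so overlapping genes (8 members overlap a gene on the same strand, 11 on the other) and near-identical copies are uncertain.

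A symbol was found for 58876 of 58884 identifiers, and 13 pseudogenes were dropped from 83 symbols that matched. Members and lists were chosen with earlier results of these data known. Counts of all 8 libraries were fitted with edgeR 4.0.16 in R 4.3.3 (filterByExpr with a minimum count of 10, TMM factors, 1 coefficient per group, quasi-likelihood F-test), which left 14741 genes and 4 residual degrees of freedom. P-values were adjusted by the Benjamini-Hochberg method over all of these genes and called under 0.05. The SE is the absolute log2 fold change over the square root of F. Shares use library totals.

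The genes named are the 4 members of each class with the highest mean CPM, the members with the largest and smallest fold change in each comparison, those not falling with belinostat, those outside chromosome 6, those known to be polyadenylated, and in other lists up to 4 with the smallest adjusted p, besides NPAT and SLBP. A result for 1 gene that this rule names is not reported here. Other genes were named after their values were seen. Motif letters beyond the promoter motifs, 50-base sharing and lengths after the stop codon were also chosen after seeing the files. Alternatives were RLE factors, library size only, TMM without the 10 most abundant genes, an adjusted p under 0.01, a block for the replicate number, DESeq2 1.42.0, no filter, fits of just the groups compared, 1 CPM in 2 libraries and each library left out. The fit was tested on simulated data.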

Additional observations from a re-analysis of the deposited data

How the results depend on the processing

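The counts of members called for belinostat against DMSO, the combination against AsiDNA and the combination against belinostat kept their direction and stayed within 1.5 times the reported count under all alternatives. Leaving out single libraries gave 51 to 52 falling members for belinostat against DMSO, 43 to 51 for the combination against AsiDNA and 48 to 52 higher members for the combination against belinostat. It gave 29 to 51 lower and 0 to 7 higher members for the combination against DMSO, 0 to 52 higher members for AsiDNA against DMSO and 0 to 51 for the interaction. An adjusted p under 0.01 left 0 higher members in the combination against DMSO. Without a filter on low counts 12 members were higher in AsiDNA than in DMSO, beside 0.136% of all genes then tested. The interaction gave 2 higher members with RLE factors (0.0475% of all tested genes), 21 with library size only (0.943%), 28 with TMM without the 10 most abundant genes (2.32%), 28 with a filter of 1 CPM in 2 libraries (2.04%), 34 with DESeq2 (3.23%) and 47 without a filter (3.83%); the cause was not tested. Without the 10 most abundant genes in the total, the histone share of counts was 0.527% in AsiDNA, 0.0608% with belinostat and 0.198% in the combination.

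Values for the combination against DMSO that were called in the other direction without DMSO replicate 1 were those of H1-2 (0.353), H1-3 (0.382), H1-4 (0.481), H2AC6 (0.535) and H4C4 (0.389), none of which was called with all libraries; leaving out the second DMSO library instead gave -0.474, -0.505, -0.357, -0.699 and -0.628. The median for AsiDNA against DMSO was 1.004 when replicate 1 of DMSO was left out and 0.161 when replicate 2 was. Alternatives for single named members were counted without AsiDNA against DMSO and the interaction, the comparisons whose calls moved most. Of those counted, 2028 kept their side of the threshold, 52 lost a call, 23 gained one and 5 were reversed. A change of sign in a value called in neither fit was counted as kept.

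The labels give replicate numbers without saying whether same-numbered libraries belong together. Deviations of same-numbered libraries correlated between -0.196 and 0.139 over genes. These correlations cannot decide the matter, as each group holds only 2 libraries. With a replicate block 52 members fell for belinostat against DMSO, beside 27.2% of all tested genes. It gave 49 lower members for the combination against AsiDNA (20.9% of all tested genes) and 41 for the combination against DMSO (23.3%). The interaction then gave 7 higher members, beside 0.0882% of all tested genes. Depth limited members under about 1 CPM, such as H2AC4 with belinostat, and members with at most 39 counts in all, which were not tested.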

Other observations

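A locus without a histone symbol, AL031777.3 (ENSG00000282988), overlaps H3C4 and H2AC7 on their strand in GENCODE release 29. It stood at 57.4 and 28.96 CPM in DMSO, 76.3 and 65.9 in AsiDNA, 5.61 and 7.76 with belinostat and 30.5 and 31.6 in the combination. It fell by 2.71 ± 0.29 on the log2 scale with belinostat (edgeR, adjusted p = 5.05e-06), while H3C4 itself held no count.

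Gene models differ in the bases they hold after the stop codon, and the medians for belinostat against DMSO differed with them. The median for belinostat against DMSO was -3.50 over 28 tested members with no such bases, -3.06 over 8 with 1 to 300 and -2.42 over 18 with over 300, where the values ran from -4.57 to 0.18. The group with over 300 holds H2AC25, H2BC26 and H4C16, the tested members outside the large clusters. For the combination against DMSO the medians were -1.11, -1.18 and -0.78, which do not keep this order. This split was made after the values were seen and was not tested. H2BC15, whose model spans 2 H2A members and a pseudogene, stood at -1.98.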
